A study of Homo sapiens with 9 samples.

Results

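Integrins are cell surface receptors made of 1 alpha and 1 beta chain that bind the extracellular matrix outside the cell and hold the actin skeleton inside it. Laminins are secreted trimers of an alpha, a beta and a gamma chain, and they form the backbone of basement membranes. The genes of both families were examined in LX-2, an immortalised human hepatic stellate cell line. Gene symbols of the form ITGA, ITGB, LAMA, LAMB or LAMC with a chain number or letter were taken from the table of 20777 listed genes. The rule gave 35 genes, of which 34 are described here, namely 16 integrin alpha, 8 integrin beta and 10 laminin chains. ITGA4, ITGA8 and LAMB4 were not analysed here.

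In the liver, stellate cells lie beside a thin basement membrane matrix. When they become activated, they change the matrix they make and the integrins by which they hold it. TGF-β is the classical activating signal, and several integrins can in turn release TGF-β from its latent form.

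RNA was sequenced from 3 groups of 3 libraries each, all of wild-type LX-2 cells in serum-containing medium. The control group carries no treatment label, the TGF-β group was treated with TGF-β and the TGF-β + uridine group with TGF-β and the nucleoside uridine, both labelled day 1. The paper's methods describe TGF-β treatment first, followed by a change to medium with uridine. No group with uridine alone was measured here, so each uridine value comes from cells that also received TGF-β. The labels do not say whether replicates were separate cultures, so p-values measure only the spread between these libraries.

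Each library held 40539751 to 41467124 reads counted on genes. TMM factors, which rescale each library to the others, ran from 0.82 in control replicate 1 to 1.16 in control replicate 3. The slope of log2 level on GC content was 5.65 in control replicate 1 and -4.10 in control replicate 3, with the TGF-β libraries between -0.32 and 0.54 and the uridine libraries between -2.69 and 2.28. Of the 14 stellate cell and fibroblast markers examined, 12 were listed. VIM stood at 438 to 852 FPKM and COL1A1 at 7.34 to 12.7 FPKM, but COL1A2 had 0 reads in 8 of 9 libraries. The epithelial keratin KRT8 stood at 2110 to 2960 FPKM, while EPCAM had at most 5 reads. In bulk RNA, fewer cells of a type and less RNA per cell cannot be told apart.

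Of these 34 genes, 25 passed the filter on low counts and were tested, namely 9 alpha, 6 beta and 10 laminin chains. Levels of different genes were compared as FPKM, which corrects for gene length. Levels of 1 gene across libraries were compared as CPM after TMM. This measure gives reads of the gene relative to the library size rescaled by TMM, not to all reads of the library. Reads were counted per gene symbol, and the annotation places some members over other genes. Exons of ITGB7 share 42.1% of their bases with ZNF740 on the other strand, ITGAE shares 6.41% with HASPIN and ITGB2 shares 4.46% with ITGB2-AS1. The handling of strand in the counting is not given in the sources used here, so the source of such reads cannot be told apart.

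Promoter windows are shown for the fibronectin receptor chain ITGA5 and the laminin-332 chains LAMA3 and LAMB3, because these hold a match to a motif searched for. Of these 3 genes, only ITGA5 passed the main test described further on, and no window is shown for ITGB3. RefSeq windows (GRCh38.p14, 250 bases before to 50 after an annotated start) were found for 23 of the 34 genes, 30 windows in all. They were searched for TGANTCA, the form of site bound by AP-1 factors of the Fos and Jun families, which reads the same on both strands, and for GTCTAGAC, a palindrome bound by SMAD proteins. TGANTCA was found in 3 of the 30 windows and in 7.71% of all 35116 windows. GTCTAGAC was found in none of the 30 and in 0.202% of all windows. The match in ITGA5 began at position -6 from the start, those in LAMA3 at -125 and -69, and the one in LAMB3 at -67. LAMB3 has 2 further windows without a match. The LAMA3 window belongs to a start inside the gene, whose annotated span begins at position 23689443. The capitals mark TGANTCA, each line runs 5′ to 3′ on the gene's strand, and a match is a description of the sequence.
ITGA5, chr12:54419217-54419516, minus strand: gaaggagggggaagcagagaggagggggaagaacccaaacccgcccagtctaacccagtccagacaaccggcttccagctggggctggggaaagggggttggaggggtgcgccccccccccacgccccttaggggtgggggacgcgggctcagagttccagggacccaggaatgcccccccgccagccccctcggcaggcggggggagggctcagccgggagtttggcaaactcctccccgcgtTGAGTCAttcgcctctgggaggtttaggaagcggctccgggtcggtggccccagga
LAMA3, chr18:23872770-23873069, plus strand: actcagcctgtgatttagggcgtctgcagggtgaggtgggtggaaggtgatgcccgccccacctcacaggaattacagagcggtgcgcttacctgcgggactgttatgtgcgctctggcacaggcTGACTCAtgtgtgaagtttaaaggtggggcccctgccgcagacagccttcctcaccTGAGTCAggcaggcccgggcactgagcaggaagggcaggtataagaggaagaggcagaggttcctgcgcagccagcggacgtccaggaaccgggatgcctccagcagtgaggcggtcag
LAMB3, chr1:209651325-209651624, minus strand: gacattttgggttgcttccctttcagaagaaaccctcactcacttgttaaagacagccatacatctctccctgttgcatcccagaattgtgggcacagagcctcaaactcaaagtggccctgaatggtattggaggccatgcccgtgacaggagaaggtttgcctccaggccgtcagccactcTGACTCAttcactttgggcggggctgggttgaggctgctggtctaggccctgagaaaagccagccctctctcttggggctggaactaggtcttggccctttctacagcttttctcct

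In FPKM, which does not correct for GC content, a narrow set of integrin chains stood at a high level. The part of GC content in the ranks between genes, here and below, was not tested. In the control group ITGA5, the alpha chain that pairs with beta 1 to bind fibronectin, stood at 96.2 ± 1.9 FPKM (SD, n = 3). ITGA3, which pairs with beta 1 to bind laminin, stood at 56.3 ± 1.5 FPKM. The next alpha chain, ITGAE, known from lymphocytes in epithelia, stood at only 4.21 FPKM, and its ranges overlapped those of ITGA6, a laminin-binding chain at 2.70 ± 1.85 FPKM. Below them came ITGAV, the chain of the latent TGF-β binding integrins, at 0.909 ± 0.735 FPKM.

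Among beta chains ITGB5, a partner of ITGAV, led with 30.0 ± 3.9 FPKM in the control group. ITGB4, the partner of ITGA6 in hemidesmosomes, stood at 6.58 ± 0.58 FPKM and ITGB1, the common partner of most alpha chains, at 5.74 ± 5.06 FPKM. The 3 control values of ITGB1 were 0.967, 5.21 and 11.1 FPKM, so that its place relative to ITGB4 differed from library to library. Summed over 10 alpha chains that pair with beta 1, the level was 150.3 to 162.6 FPKM in the control group. ITGA5 made up 60.3% to 62.7% of this sum, which leaves out ITGA4 and ITGA8.

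Laminin genes were led by LAMB3 at 74.6 ± 3.2 FPKM, the beta chain of laminin-332. LAMB2 followed at 35.0 ± 1.8 FPKM, then LAMC1 at 19.1 ± 11 FPKM and LAMA5 at 15.0 ± 4.2 FPKM. LAMB2, LAMC1 and LAMA5 are chains of laminin-521, a trimer of mature basement membranes. The 3 control values of LAMC1 and LAMA5 overlapped. LAMC3 (7.28 FPKM) and LAMB1 (6.30 FPKM) came next, and LAMA3, LAMA4, LAMA1 and LAMA2 all stood below 1 FPKM. LAMA3 belongs to laminin-332 with LAMB3, and in control libraries the LAMB3 level was 125 to 301 times that of LAMA3.

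**Figure D1:**
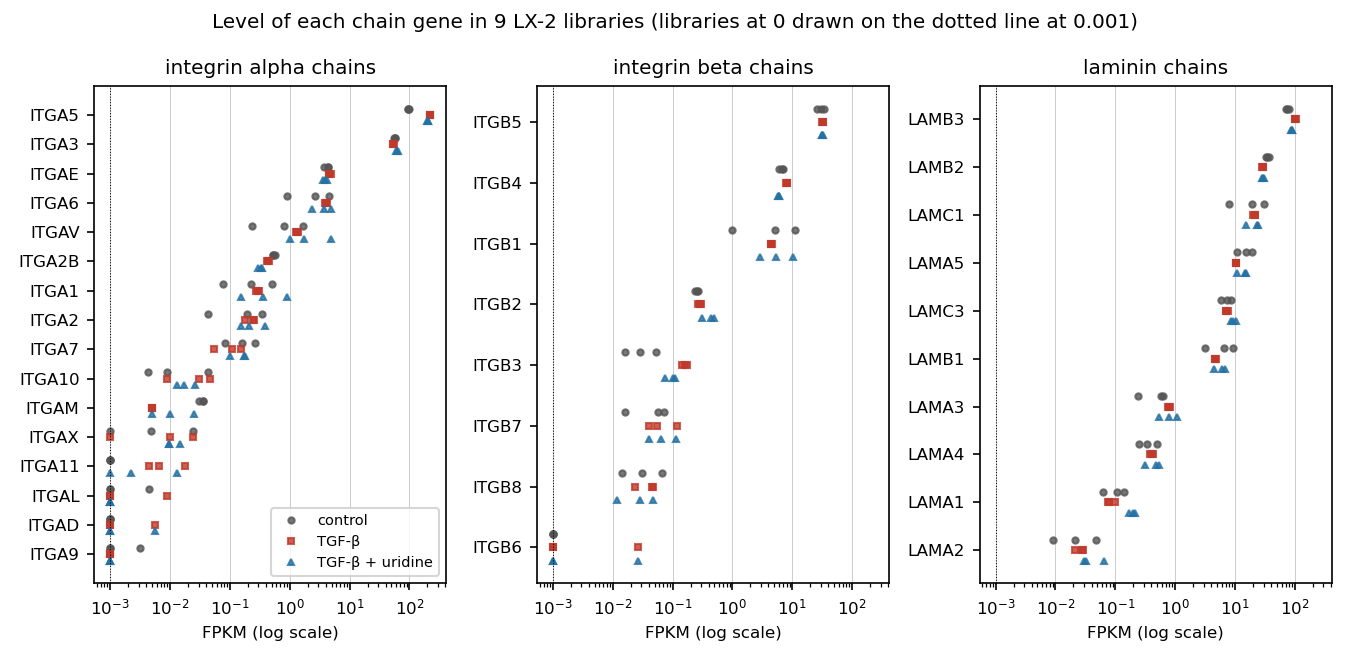
Level of each of the 34 chain genes in each of the 9 libraries, in FPKM on a log axis, with control libraries as grey circles, TGF-β libraries as red squares and TGF-β + uridine libraries as blue triangles. ITGA5, ITGA3, ITGB5, LAMB3 and LAMB2 lead their families, and the control values of ITGB1, ITGAV and LAMC1 spread wider than their TGF-β values.

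The 9 genes that were not tested had few reads. A limit of 3 counts corresponds to 0.0629 to 0.0889 CPM, depending on the library. ITGA9 had 1 read in all 9 libraries together, ITGAD and ITGAL had at most 2 reads in any library, and ITGB6 had 5 reads in 2 libraries and 0 in the others. ITGAD and ITGAL belong to leukocyte integrins and ITGB6 to an epithelial one. ITGA11, a collagen-binding chain, had 0 reads in every control library, 2, 3 and 8 with TGF-β, and 6, 0 and 1 with uridine. ITGA10, which also binds collagen, had at most 11 reads, ITGAX, another leukocyte chain, at most 5, and ITGB7, the beta chain of gut-homing lymphocytes, 2 to 15. ITGAM, the alpha chain of the macrophage integrin Mac-1, had 7, 6 and 7 reads in the control group, 1 in every TGF-β library, and 2, 1 and 5 with uridine. ITGB2, the beta chain of the leukocyte integrins, was tested and had 30 to 64 reads in every library. Of the 12 leukocyte markers examined, 8 were listed, and their summed level, carried by CD68 and CSF1R, was 19.8 to 20.8 FPKM in the control group, 30.8 to 33.1 with TGF-β and 27.2 to 30.6 with uridine. Of the 8 platelet and megakaryocyte markers examined, 3 were listed and none passed the filter on low counts. Those 3 summed to at most 0.0742 FPKM, beside 43 to 80 reads of ITGA2B, the alpha chain of the platelet fibrinogen receptor. The part of such cells in these reads was not tested.

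The first comparison asks what TGF-β changed. Among the 25 tested genes, ITGA5 and ITGB3 rose and none fell (edgeR quasi-likelihood test, Benjamini-Hochberg adjusted p under 0.05 over 13384 genes). Over all tested genes, 2.42% rose and 0.964% fell by the same call. At an unadjusted p under 0.05, 6 of the 25 stood apart, beside 12.1% of all tested genes. The median log2 fold change of the 25 was 0.16, beside -0.05 over all tested genes, and 17 of the 25 were positive, beside 41.1% of all tested genes.

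ITGA5 (ENSG00000161638, chr12:54395261-54419460, minus strand) was the most abundant of these genes in every group and had the lowest adjusted p of the 25. It had 16743, 16861 and 17448 reads in the control group, 39798, 39945 and 39115 with TGF-β, and 36700, 36789 and 34970 with TGF-β and uridine. The groups with and without TGF-β did not overlap, also in CPM, where the controls ran from 365.9 to 496.0 and the uridine libraries from 789.9 to 961.5. In CPM it rose from 421.1 ± 67.2 to 973.5 ± 24.8 (SD, n = 3), a log2 fold change of 1.21 (SE 0.13, 95% interval 0.91 to 1.51, edgeR adjusted p = 0.00143). ITGA3 had 11088, 11399 and 11654 reads in the control group, 10918, 10860 and 10981 with TGF-β, and 13018, 12641 and 11987 with uridine. Its TGF-β difference was -0.07 on the log2 scale, and its adjusted p was among the 19 from 0.613 to 0.999. The ratio of ITGA5 to ITGA3 in FPKM therefore went from 1.69 to 1.73 in the control group to 4.07 to 4.20 with TGF-β. ITGA5 then made up 78.5% to 79.1% of the sum over the same 10 alpha chains that pair with beta 1.

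ITGB3 (ENSG00000259207, chr17:47253846-47311816, plus strand) is the beta chain that forms the vitronectin receptor with ITGAV. Its counts were low in every library, with 13, 7 and 4 reads in the control group, 39, 36 and 43 with TGF-β, and 25, 18 and 27 with uridine. The 3 groups did not overlap. The rise from 0.212 ± 0.156 to 0.967 ± 0.089 CPM was a log2 fold change of 2.22 (SE 0.49, 95% interval 1.11 to 3.33, edgeR adjusted p = 0.0455). The call was close to the threshold and was lost in 12 of 19 alternatives, with an adjusted p from 0.0016 to 0.205. With 1 library left out, its log2 fold change ran from 1.82 (control replicate 3 left out) to 2.93 (control replicate 1 left out). Even with TGF-β, ITGB3 stood at 0.161 FPKM, beside 31.9 ± 0.9 FPKM for ITGB5 and 8.06 ± 0.23 FPKM for ITGB4.

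LAMB3 and LAMA3, chains of laminin-332, had higher means with TGF-β but did not pass the test. LAMB3 had 13477, 13492 and 14610 reads in the control group, 19011, 18971 and 18706 with TGF-β, and 16648, 16233 and 16311 with uridine. All TGF-β libraries were above all controls, and the log2 difference of LAMB3 was 0.44 (SE 0.12; adjusted p by edgeR 0.0976). LAMA3 went from 5.23 ± 1.66 to 8.97 ± 0.26 CPM, a log2 difference of 0.77 (SE 0.28, edgeR adjusted p = 0.253). LAMB3 was called in 8 of 22 alternatives and LAMA3 in 2. The promoter windows of both genes are among those shown above with a TGANTCA match, and the part of this motif in the differences was not tested.

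LAMA5 and LAMB2, chains of laminin-521, had lower values with TGF-β. LAMA5 had 5132, 7041 and 9103 reads in the control group and 4929, 4952 and 4926 with TGF-β, and its CPM ranges did not overlap (170.2 ± 19.6 against 121.3 ± 2.3). The log2 difference was -0.49 (SE 0.12, edgeR adjusted p = 0.0637). LAMB2 had 7836, 8013 and 8691 reads in the control group, 6858, 6809 and 6652 with TGF-β, and 7037, 6504 and 7068 with uridine. Its log2 difference between TGF-β and control was -0.28 (SE 0.11, edgeR adjusted p = 0.297), and it was -0.17 when control replicate 1 was left out. LAMB2 was called in 6 of 22 alternatives and LAMA5 in 4. The third chain of that trimer, LAMC1, was counted 2603, 6177 and 9792 times in the control group, 6545, 7179 and 7038 times with TGF-β, and 7615, 4982 and 7767 times with uridine, so that the control range enclosed the treated ones.

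Counted in CPM without a test, 5 of the 25 genes had every TGF-β library above every control library (ITGA5, ITGB3, ITGB5, LAMA3, LAMB3), and 2 had them below (LAMA5, LAMB2). For ITGB5 the reads and FPKM of the 2 groups overlapped, and its log2 difference was 0.10 (edgeR adjusted p = 0.890). Over all tested genes 9.72% lay above and 7.96% below in the same way. An exact permutation test of 3 against 3 libraries cannot give a p below 0.1.

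**Figure D2:**
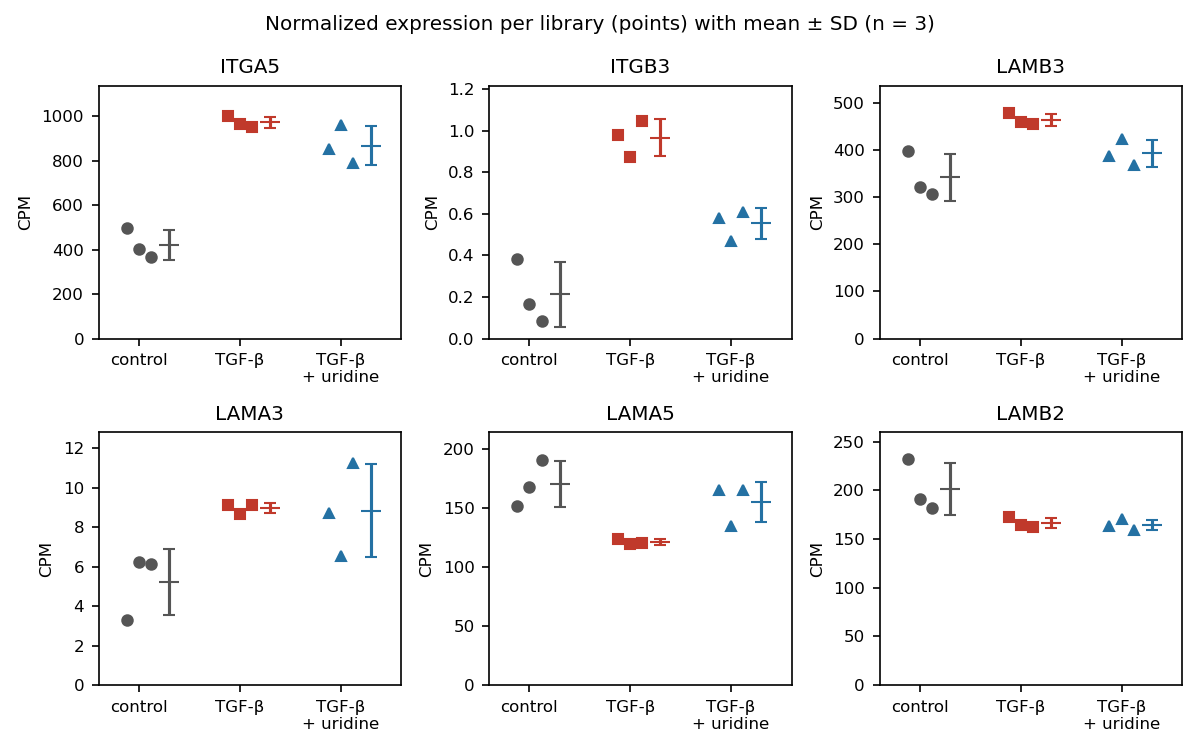
Normalized level in CPM of 6 chain genes in each library, with 1 point per library and the mean ± SD of 3 libraries beside the points, on axes from 0. ITGA5 in the treated libraries lies well above the control libraries, LAMA5 and LAMB2 lie lower with TGF-β than in the control, and LAMA3 with uridine overlaps the TGF-β libraries.

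By the median over the 25 genes, the 3 control libraries differed from each other more than the libraries of the other groups did. The highest control library exceeded the lowest by a median of 1.68-fold over the 25 genes, beside 1.08-fold in the TGF-β group and 1.3-fold in the uridine group. The fold was above 2 for 11, 1 and 7 of the 25 genes. ITGB1 was counted 160, 849 and 1830 times in the control group, 719, 771 and 732 times with TGF-β, and 902, 480 and 1719 times with uridine. Its control libraries thus differed by 8.10-fold in CPM, and its TGF-β libraries by 1.05-fold. ITGAV differed by 5.16-fold among controls, with 69, 235 and 503 reads, and ITGA6 by 3.67-fold, with 221, 643 and 1147 reads.

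All 10 members with a GC content under 50% were higher in control replicate 3 than in control replicate 1 (median log2 ratio 1.65), as were 4 of the 15 others (median -0.38). Across these 25 genes, which share both libraries and are not independent, Pearson's r of GC content and log2 ratio was -0.74. ITGB1 has a GC content of 40.0%, ITGAV of 38.3%, ITGA5 of 54.5% and LAMA5 of 66.4%. The part of GC content in the levels was not tested.

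**Figure D3:**
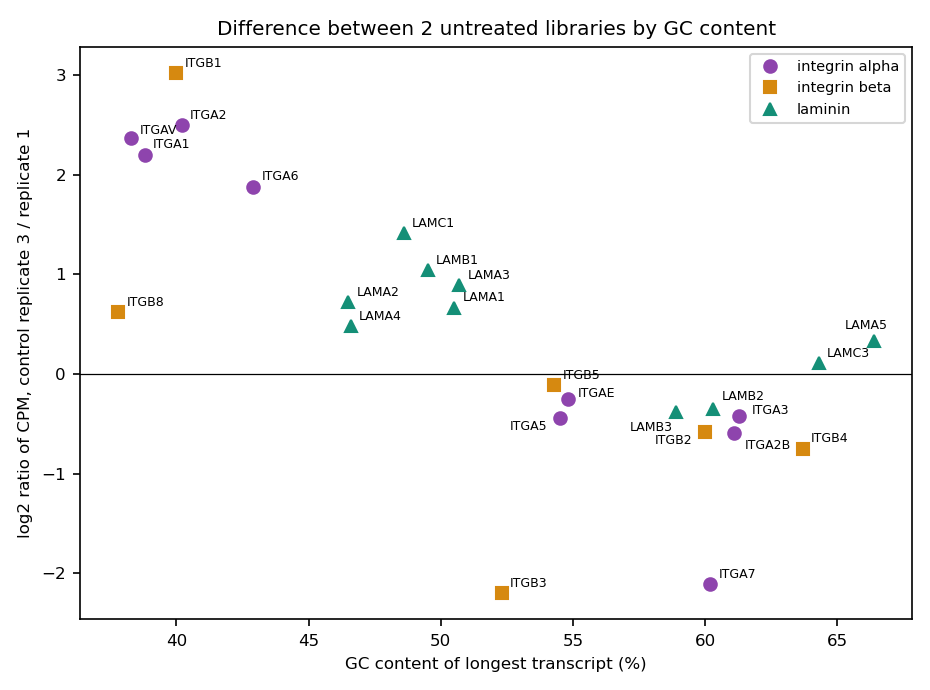
Log2 ratio of CPM between control replicate 3 and control replicate 1 against the GC content (%) of each tested gene's longest transcript, with integrin alpha chains as purple circles, beta chains as orange squares and laminin chains as green triangles. ITGB1, ITGA2, ITGAV, ITGA1 and ITGA6 lie highest, and the genes with a high GC content lie near or below 0.

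A model with each library's GC slope as a covariate, chosen after seeing the data, called 11 of the 25 genes between TGF-β and control, beside 20.3% of all tested genes. ITGB3 (log2 fold change 2.39) and ITGA5 (1.23) were among them. The others that rose in this model were ITGAV (0.93), ITGA6 (0.84), LAMA3 (0.80), LAMB3 (0.46), LAMC1 (0.32) and ITGB4 (0.32), and those that fell were LAMA5 (-0.49), LAMB1 (-0.31) and LAMB2 (-0.26). Without control replicate 1, the model without the covariate called 6 of the genes, namely ITGA5, ITGB3, ITGB4, LAMA5, LAMB1 and LAMB3, beside 7.93% of all tested genes.

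The second comparison asks what uridine changed in cells treated with TGF-β. It shares the TGF-β libraries with the first comparison. Its estimate of the spread comes from all 9 libraries, so the spread among controls enters it. In this edgeR model none of the 25 genes was called in either direction, and 5 had an unadjusted p under 0.05, beside 8.79% of all tested genes. Over all tested genes 0% rose and 0.0448% fell. DESeq2 called 1 of the chain genes, LAMA1, beside 0.849% of all tested genes. With only these 2 groups fitted, edgeR called ITGB4 (adjusted p = 0.0361), beside 2.44% of all tested genes. In the model of all libraries, the median log2 difference was 0.06, beside 0.02 over all tested genes.

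Neither gene that rose with TGF-β differed from its TGF-β level by the test. ITGA5 was 868.3 ± 86.7 CPM with uridine and 973.5 ± 24.8 without, a log2 difference of -0.17 (SE 0.13, 95% interval -0.46 to 0.13, edgeR adjusted p = 0.844). ITGB3 was 0.554 ± 0.074 CPM, a difference of -0.80 with an interval from -1.82 to 0.22 (edgeR adjusted p = 0.710), which leaves room for a change in either direction. The ratio of ITGA5 to ITGA3 in FPKM was 3.22 to 3.33, below all TGF-β libraries and above all controls.

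The lowest adjusted p of the 25 belonged to LAMA1, the alpha chain of embryonic laminin-111. It was counted 25, 42 and 56 times in the control group, 39, 30 and 31 times with TGF-β, and 79, 66 and 84 times with uridine. Its level was 1.82 ± 0.09 CPM with uridine and 0.821 ± 0.140 without, a log2 difference of 1.15 (SE 0.27, edgeR adjusted p = 0.261). At 0.192 FPKM it remained among the 4 lowest laminin chains. LAMC3, a gamma chain, was at 70.8 ± 6.7 CPM against 55.6 ± 2.1, a difference of 0.35 (SE 0.10, edgeR adjusted p = 0.346).

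LAMA5 was at 155.1 ± 17.3 CPM with uridine, between its TGF-β and control means, with a log2 difference from TGF-β of 0.35 (SE 0.12, edgeR adjusted p = 0.404). ITGB4 was counted 2006, 1859 and 1686 times in the control group, 2257, 2235 and 2326 times with TGF-β, and 1698, 1717 and 1599 times with uridine. Its difference between uridine and TGF-β was -0.48 (SE 0.18, edgeR adjusted p = 0.474), with no overlap between the groups. ITGB4 was called in 7 of 22 alternatives, among them the 3 limma settings, and LAMA1 in 3 of 20. ITGAE was counted 890, 1027 and 1053 times in the control group, 1073, 1179 and 1065 times with TGF-β, and 1000, 914 and 859 times with uridine (log2 difference between uridine and TGF-β -0.29, SE 0.13, edgeR adjusted p = 0.553). ITGB5 was counted 5137, 5852 and 6700 times in the control group, 6077, 6359 and 6393 times with TGF-β, and 6550, 6235 and 6179 times with uridine. Its uridine and TGF-β ranges overlapped.

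In CPM, 4 of the 25 genes had every uridine library above every TGF-β library (ITGB2, LAMA1, LAMA5, LAMC3) and 5 had them below (ITGA2B, ITGAE, ITGB3, ITGB4, LAMB3). The shares over all tested genes were 12.8% above and 12.8% below. With the GC covariate 9 of the 25 genes were called, beside 19.1% of all tested genes. These were LAMA1, LAMC3, LAMA5 and ITGA3, which rose by 1.12, 0.35, 0.34 and 0.18 on the log2 scale, and ITGB4, ITGA6, ITGAE, LAMB3 and ITGA5, which fell by 0.46, 0.31, 0.29, 0.23 and 0.15.

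**Figure D4:**
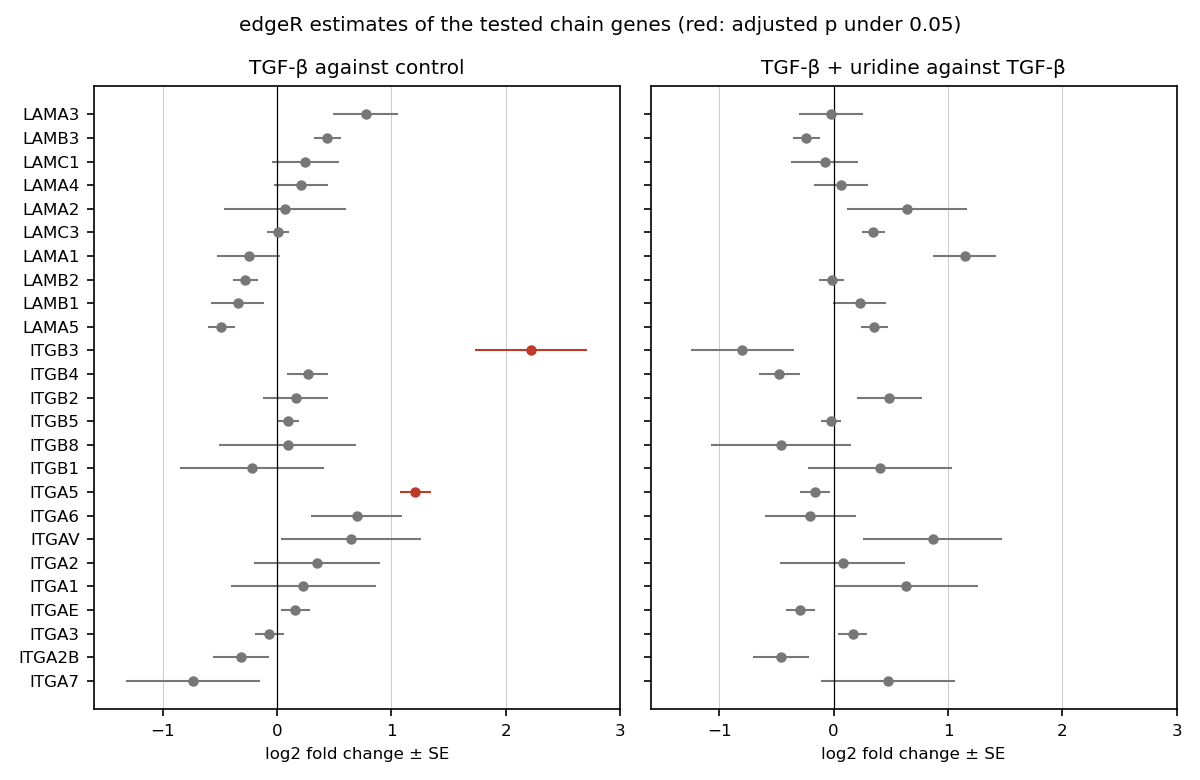
Log2 fold change ± SE of the 25 tested chain genes for TGF-β against control (left) and for TGF-β + uridine against TGF-β (right), with genes at an edgeR adjusted p under 0.05 in red. ITGB3 and ITGA5 are red on the left and no gene is red on the right, and both panels share the TGF-β libraries.

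Against the untreated cells, the TGF-β + uridine group shares the control libraries with the first comparison. ITGA5 rose by 1.04 on the log2 scale (SE 0.13, edgeR adjusted p = 0.00277), and the other 24 of the 25 genes were not called. At an unadjusted p under 0.05, 9 stood apart, beside 17.6% of all tested genes. Without control replicate 1, edgeR called 3 of the chain genes, ITGA5, ITGB3 and LAMB3, beside 17.6% of all tested genes. Over all tested genes 2.89% rose and 2.44% fell. ITGB3 differed by 1.42 (SE 0.49, edgeR adjusted p = 0.161; 1.02 to 2.12 with 1 library left out), LAMC3 by 0.36 (edgeR adjusted p = 0.0800) and LAMA1 by 0.90 (edgeR adjusted p = 0.109). ITGAV differed by 1.52 (SE 0.62, edgeR adjusted p = 0.242), and its uridine libraries, with 518, 298 and 1432 reads, differed by 4.15-fold in CPM, beside 5.16-fold among controls. With 1 library left out, its log2 difference was between 0.71 (without TGF-β + uridine replicate 3) and 2.18 (without control replicate 3). The groups did not overlap in CPM for 6 genes that were higher (ITGA5, ITGB2, ITGB3, LAMA1, LAMA3, LAMC3) and 2 that were lower (ITGA2B, LAMB2), beside 10.5% and 9.2% of all tested genes. The model with the GC covariate called 15 of the 25, of which 12 rose, beside 31.1% of all genes.

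Genes around these receptors and chains were read from 4 lists. These were written with earlier results of these data known, so their counts beside the background are a description and not a test. Among 28 genes of integrin ligands, 21 were listed and 18 tested, and 6 rose with TGF-β while none fell (edgeR), beside 2.42% higher and 0.964% lower over all tested genes. The same background applies to the other 3 lists. CCN2, a matricellular protein, rose by 2.78 (adjusted p = 0.0040), THBS1, thrombospondin, by 1.96 (adjusted p = 0.0059) and CCN1 by 1.57 (adjusted p = 2.7e-05). The other 3 were FN1, the fibronectin bound by ITGA5, at 1.56 (adjusted p = 6.1e-04), TNC at 1.43 and MFGE8 at 0.92, named after their values were seen. The median of the list was 0.49. TGFB1 had the highest level of the list, 77.6 FPKM.

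Of 15 other basement membrane genes, 14 were tested and 3 rose with TGF-β, with none lower (edgeR). They were the collagen chains COL4A1 at 1.59 (adjusted p = 0.0046), COL4A2 at 1.26 (adjusted p = 6.1e-04) and COL18A1 at 0.97 (adjusted p = 0.0168). SPARC was the most abundant at 86.9 FPKM, and the median of the list was 0.17. Of 34 genes of the adhesion complex inside the cell, 31 were tested, and 2 rose and 1 fell. LIMS2, which binds integrin-linked kinase, rose by 2.23 (adjusted p = 0.00168), FBLIM1, a filamin adaptor, rose by 1.07 (adjusted p = 0.0177) and TNS3, a tensin, fell by 0.60 (adjusted p = 0.0127). CSRP1 was the most abundant at 324.0 FPKM, and the median was 0.27.

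Of 18 genes of other laminin receptors and their processing, 15 were tested and 1 fell, BCAM, a receptor of laminin alpha 5, by 0.79 (edgeR adjusted p = 0.0173). RPSA was the most abundant at 2524 FPKM, and the median was 0.14. Between uridine and TGF-β no gene of the 4 lists was called in either direction by edgeR, with 2, 3, 1 and 1 genes at an unadjusted p under 0.05 in the order of the lists above (of 18, 14, 31 and 15 tested), beside 8.79% of all tested genes. Against control, the uridine group had 6 ligand genes and 3 basement membrane genes higher, 2 adhesion genes higher and 2 lower, and 1 laminin receptor gene lower, of the same numbers tested, beside 2.89% higher and 2.44% lower over all tested genes. The summed level of the stellate cell and fibroblast markers, made up mostly of VIM, was 508.9 to 603.8 FPKM in the control group, 932.6 to 950.4 with TGF-β and 836.8 to 863.5 with uridine. The part of these markers in the results was not tested.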

How the data were processed

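Total RNA of 9 LX-2 libraries was sequenced by a commercial provider. The authors deposited counts of reads per gene symbol, whole and not normalized, and FPKM values of the same 20777 genes. The submitters' processing notes name fastp, HISAT2, HTSeq, R 3.2.0 and GRCh38.p13. Libraries were grouped by their labels, with all 9 columns used and 3 libraries a group.

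The test was the two-sided quasi-likelihood F test of edgeR 4.0.16 under R 4.3.3, after filterByExpr and TMM, with 1 model for the 3 groups, and p-values were adjusted by Benjamini-Hochberg over 13384 tested genes. The common biological coefficient of variation was 0.289. Intervals are 95% intervals of the model. CPM values use TMM library sizes, and the limit for a count of 0 was 3 counts, which covers counting error only. Positions and GC content come from GENCODE v29 (12319 of 13384 genes matched). All members and lists were chosen with earlier results of these data known. The fit included every listed gene that passed the filter, but 1 chain gene is not reported here and does not enter the counts and medians of the chain genes. Per-library counts are given for members called in any comparison and for the 3 members of highest mean FPKM in each family, and other members were named by their values. Values of list genes are given for up to 3 called genes a list and its most abundant gene, and also for the 3 other called ligand genes. Alternatives were DESeq2 1.42.0, limma 3.58.1 on log2 FPKM, other normalizations and filters, a replicate block and leaving out each library. A GC slope covariate, alone and with the block, and library totals without TMM were chosen after seeing the data.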

Additional observations from a re-analysis of the deposited data

How the results depend on the processing

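ITGA5 was called in all 22 alternatives for TGF-β against control (log2 fold changes 1.12 to 1.34) and for TGF-β + uridine against control (0.95 to 1.16). Neither ITGA5 nor ITGB3 reversed its direction. The number of genes called between TGF-β and control was 2 and became 1 with RLE normalization, without a filter, with at least 10 counts in every library and with only the 2 groups compared. It was 3 with DESeq2, with upper-quartile scaling and with limma on filtered FPKM. It became 5 with limma on log2(FPKM + 1) without a filter, 4 with library totals, 11 with the GC covariate, and 1 to 6 with 1 library left out, with 6 without control replicate 1 and 1 without each of the others. The share of all tested genes called was 3.38%, and it was 3.21%, 1.83%, 3.71% and 1.77% in the 4 settings with 1 chain gene called, 4.89% with DESeq2, 3.95% with upper-quartile scaling, 8.1% with limma on log2(FPKM + 1), 3.83% with limma without a filter, 5.79% with library totals, 20.3% with the GC covariate, 7.93% without control replicate 1 and 1.59% to 3.49% without each of the others. Between uridine and TGF-β the number was 0 and became 1 with DESeq2, with library totals and with only the 2 groups compared, 2 with each limma setting and 9 with the GC covariate. It was 0 without each library. The share of all tested genes was 0.0448%, and it was 1.98% without control replicate 1, 0% to 0.0294% without each of the others, 0.849% with DESeq2, 1.63% with library totals, 2.44% with only the 2 groups, 1.42% to 3.89% with limma and 19.1% with the GC covariate. Between TGF-β + uridine and control it was 1 and became 3 with limma on filtered FPKM and with library totals, 5 with limma without a filter, 15 with the GC covariate, and 1 to 3 with 1 library left out, with 3 only without control replicate 1. The share of all tested genes was 5.33%, and it was 14.3% with limma on log2(FPKM + 1), 6.56% with limma without a filter, 10.4% with library totals, 31.1% with the GC covariate, 17.6% without control replicate 1 and 2.23% to 5.43% without each of the others. ITGB3 was not among the genes tested with at least 10 counts in every library or with limma on filtered FPKM, where only 15 of the chain genes were tested, and for the other settings the cause was not tested.

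ITGB3 lost its TGF-β call (adjusted p = 0.0455) with RLE normalization, without a filter, with only the 2 groups compared and without each library except control replicate 1. Over all genes, library totals moved the TGF-β calls from 324 higher and 129 lower to 475 and 300, and the uridine calls from 0 and 6 to 133 and 85 (2 and 8 with upper-quartile scaling). The labels do not say whether replicate numbers pair the libraries. Correlations of same-numbered deviations ran from -0.21 to 0.56, and those of differently numbered ones from -0.66 to 0.63. As the 2 ranges overlap and each deviation is from a mean of 3 libraries, these values cannot decide on pairing. With the replicate block, the genes called numbered 1, 0 and 1 in the 3 comparisons, without ITGB3 in the first, beside 2.35%, 0% and 3.27% of all tested genes, and with the block and the GC covariate together 11, 9 and 13, beside 17.5%, 15.5% and 28.1%. The 9 genes left out by the filter had at most 15 reads in any library, and a difference in genes at or under 3 counts was not detectable at this depth.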
